A study of Arabidopsis thaliana with 11 samples.

Results

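The GASA genes of *Arabidopsis thaliana* encode small secreted peptides whose C-terminal region is rich in cysteines. They are named for their tomato relative GAST1, a transcript that accumulates after gibberellin treatment, and several members are known as targets of gibberellin, the hormone that promotes germination, stem elongation and flowering. Gibberellin is sensed by the GID1 receptors, which lead to the degradation of the DELLA repressors, and single GASA genes are raised or lowered through this pathway. The 10 GASA loci followed here were chosen by their locus names, and their probes were found through the RefSeq transcript that the array gives for each probe. They are 10 of the 25433 loci with a probe on the array and had 13 of its 43603 probes. GASA1, GASA4 and GASA14 had 2 probes each. AT1G22690, AT5G59845 and AT2G18420 carry no symbol in the reference annotation and are called by their locus names.

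Transcript levels were measured in whole seedlings grown in liquid MS medium under continuous light for 1 week. The plants were wild type (WT) or the knockout *psy1r*, which lacks the receptor kinase PSY1R, and both lines were left untreated or were treated with 10 nM PSY1, a sulfated peptide that promotes cell expansion, for 4 h. Each RNA was labelled with cyanine 3 and hybridised to its own one-color Agilent array, 3 for WT, 3 for WT + PSY1, 3 for *psy1r* and 2 for *psy1r* + PSY1 (replicates 1 and 3). The study describes independent biological samples, and the seedlings of a sample were grown together in a flask, so a value is an average over many plants and over shoot and root. The signal of a tissue in such a sample cannot be told apart from the share of that tissue. The *psy1r* plants are one mutant line.

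All levels are log2 values of the background-subtracted signal, scaled so that the 75th percentile of every array is the same. They can be compared between arrays for one probe but not between probes. To be tested, a probe had to exceed its background clearly on 2 or more of the 11 arrays (well above background in the scanner's terms), which held for 36371 probes in all and for 12 of the 13 GASA probes, representing 9 of the 10 loci. Differences were tested with limma, which fits a linear model to each probe and borrows information on the spread from the other probes, and all 4 groups entered the same model. A probe counts as called where its Benjamini-Hochberg adjusted p over all tested probes was below 0.05 and its change was above 2-fold. With 3 or 2 arrays in a group, the number of arrays limits the precision.

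PSY1R was examined first, as a check of the genotype labels. Its log2 level was 9.42, 9.45 and 8.77 in WT and 9.15, 8.94 and 9.18 in WT + PSY1. In *psy1r* it was 4.06, 4.12 and 2.08, and in *psy1r* + PSY1 it was 3.12 and 5.91. All mutant arrays lay far below all wild type arrays. Its signal cleared the background on 1 of the 3 untreated and on 1 of the 2 treated arrays of the mutant. PSY1R was called lower in *psy1r* than in WT (log2 fold change -5.79, limma adjusted p = 0.0104) and in *psy1r* + PSY1 than in WT + PSY1 (log2 fold change -4.58, limma adjusted p = 0.0344). Leaving out replicate 3 of *psy1r* + PSY1 gave -5.98 for the second (limma adjusted p = 0.0234), while a model blocked on slide gave -4.45, which was not called (limma adjusted p = 0.0825). The first call was made in 19 of 23 other settings and the second in 11 of 23, and the log2 fold change was -2.71 or lower in each.

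The arrays differed in ways that the groups do not account for. The replicate number is also the number of the slide, and slides 1 and 3 held all 4 groups while slide 2 held all but *psy1r* + PSY1. The median absolute log2 difference between WT replicates 1 and 2 was 0.09 over the tested probes, and that between each of these and replicate 3 was 0.34 and 0.30. For *psy1r* these distances were 0.10, 0.37 and 0.38. Over the GASA probes alone, replicates 1 and 2 differed by a median of 0.11 in WT and 0.06 in *psy1r*, whereas replicate 3 differed from them by 0.43 to 0.63. The 3 arrays of WT + PSY1 lay close together. All 4 photosynthetic shoot markers and all 4 root markers were well above background on every array. The summed linear signal of the root markers was 3782, 3713 and 1465 in *psy1r* and 3817, 3849 and 2846 in WT, with replicate 3 last. It was 2650 to 2768 in WT + PSY1 and 2953 to 3084 in *psy1r* + PSY1. The summed shoot signal lay between 1172765 and 1558758. The part of the tissue shares in the GASA levels was not tested. Of the 12 seed storage and oil body genes, 5 to 10 were well above background on 10 of the arrays, with a summed linear signal of 487 to 2449. On replicate 3 of *psy1r* + PSY1 all 12 were, with a summed signal of 42780. Values of *psy1r* + PSY1 that this array moved by over 1.5 times are given without it as well. Without it the group holds a single array, whose spread is assumed to be that of the other groups, and the same holds wherever its replicate 1 is left out or replicates 1 and 2 are used alone.

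No GASA locus passed both limits in any of the 5 comparisons. Of all tested probes, 0.203% were called in WT + PSY1 against WT and 0.742% in *psy1r* against untreated WT. The share was 1.05% in *psy1r* + PSY1 against WT + PSY1, 0.0165% in *psy1r* + PSY1 against *psy1r* and 0.0605% in the interaction, which is the PSY1 response of *psy1r* minus that of WT. The count of 0 of 9 loci is close to these shares. With the slide as a block the shares of all tested probes were 0%, 0.616%, 0.33%, 0.00825% and 0.00825% in the same order. At an unadjusted p below 0.05, the counts were 3, 5, 6, 2 and 3 of the 9 loci, where 20.9%, 16.5%, 20.4%, 5.48% and 11.2% of all tested probes had such a p. One locus, GASA1, passed the adjusted p alone in *psy1r* + PSY1 against WT + PSY1, as did 1.78% of all tested probes. The groups differed in their means by up to 2.20 on the log2 scale (AT5G59845), and the plot of GASA levels by array shows the members one by one.

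**Figure D1:**
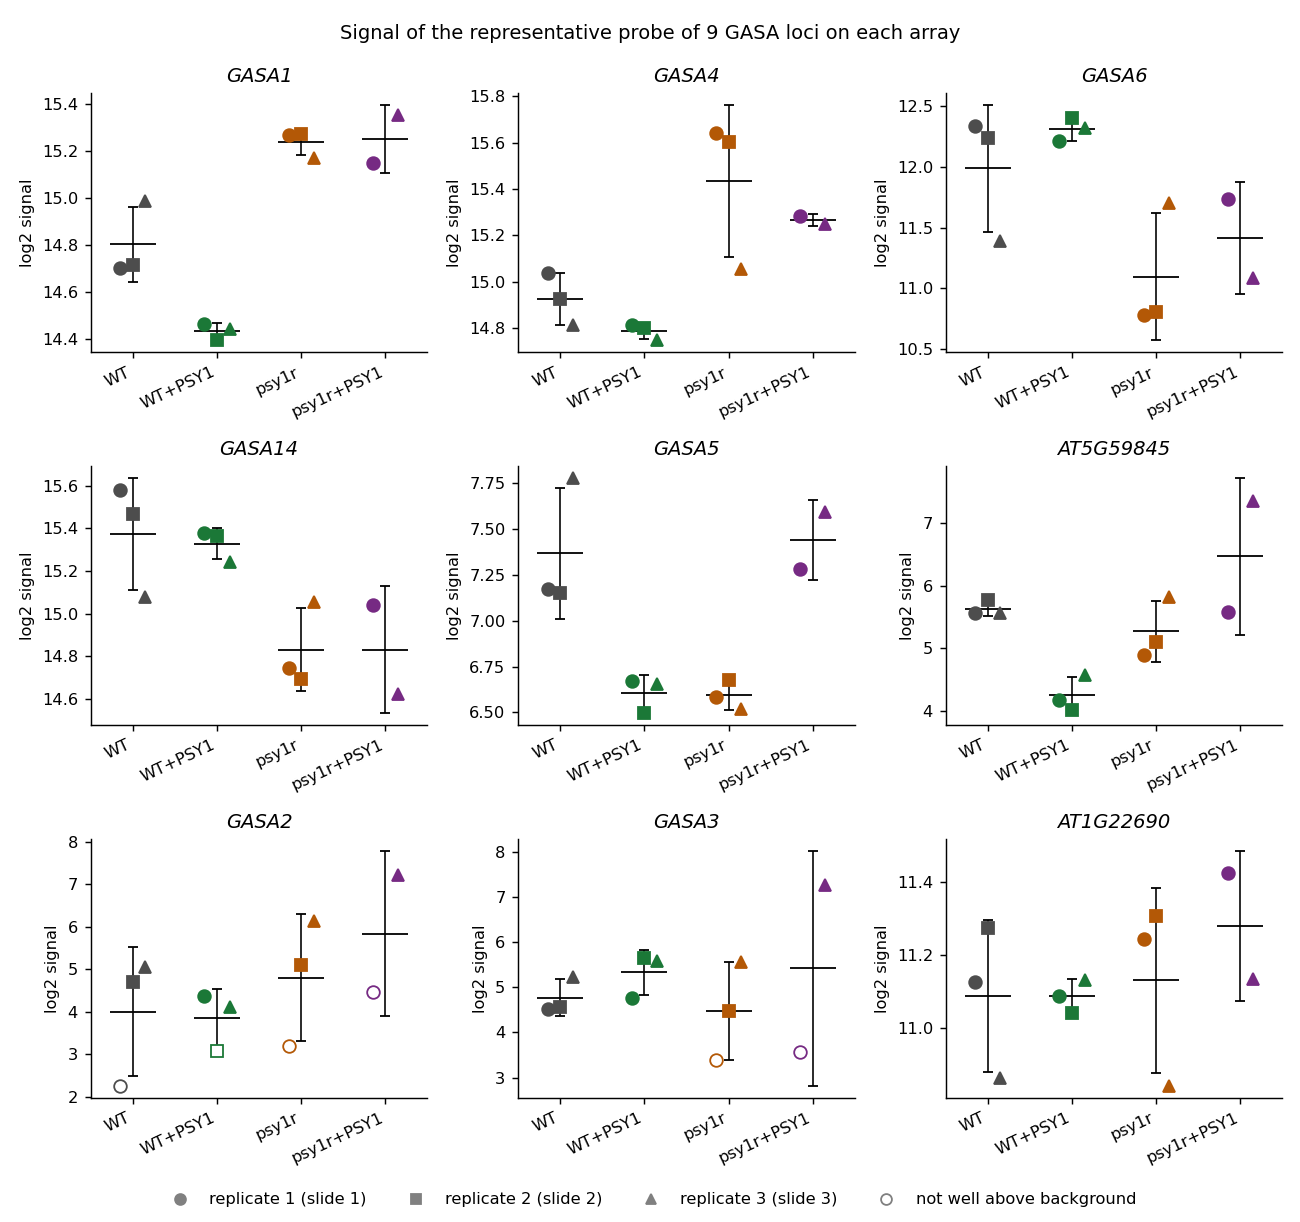
Log2 signal of the representative probe of 9 GASA loci on each of 11 arrays, by group, with the mean (wide bar) and SD. Open symbols are arrays on which the probe was not well above background. GASA1 lay between 15.15 and 15.35 on all mutant arrays and between 14.40 and 14.99 on all wild type arrays, GASA5 was high in WT and *psy1r* + PSY1 and low in the other groups, and AT5G59845 was lowest in WT + PSY1. Each panel has its own scale.

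GASA1 and GASA4 are the members next considered, of which GASA4 is known from *Arabidopsis* as a gibberellin-induced transcript of meristematic tissue. GASA1 read higher on every mutant array than on any wild type array, whether or not PSY1 was given. The first probe read 14.70, 14.72 and 14.99 in WT, 14.46, 14.40 and 14.44 in WT + PSY1, 15.27, 15.27 and 15.17 in *psy1r* and 15.15 and 15.35 in *psy1r* + PSY1. Within the wild type, all treated arrays were below all untreated ones. In *psy1r* + PSY1 against WT + PSY1 the log2 fold change was 0.82 (SE 0.12, 1.76-fold, limma adjusted p = 0.0243). The second probe gave 0.70 (SE 0.12, 1.62-fold, limma adjusted p = 0.0324), and the readings of the pair had an r of 0.953 over the 11 arrays. Both probes passed the adjusted p but stayed under the 2-fold limit. When slide entered the model as a block, the adjusted p was 0.0634 for the first probe and 0.0723 for the second, and without replicate 3 of *psy1r* + PSY1 they were 0.0823 and 0.0921, with log2 fold changes of 0.71 by both probes. Over 24 other settings the first probe was at 0.71 or above and passed the adjusted p in 16.

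In untreated plants the GASA1 difference was smaller. The log2 fold change of *psy1r* against WT was 0.44 (SE 0.11, limma adjusted p = 0.103) by the first probe and 0.42 (SE 0.11, limma adjusted p = 0.108) by the second. The values on the 3 slides were 0.56, 0.56 and 0.19 for the first probe, positive on each. PSY1 in WT gave -0.37 (SE 0.11, limma adjusted p = 0.125) by the first probe and -0.15 (SE 0.11, limma adjusted p = 0.451) by the second. The first probe was lower on all 3 slides, by -0.24, -0.32 and -0.54. In *psy1r* the response to PSY1 was 0.01 (95% confidence interval -0.27 to 0.29), and -0.09 without replicate 3 of *psy1r* + PSY1. The difference between the responses of the lines was 0.38 by the first probe (limma adjusted p = 0.439) and 0.28 by the second (limma adjusted p = 0.551), so a difference between the responses was not shown.

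In GASA4, as in GASA1, both mutant groups were above both wild type groups. The first probe read 15.04, 14.92 and 14.81 in WT, 14.81, 14.80 and 14.75 in WT + PSY1, 15.64, 15.60 and 15.06 in *psy1r* and 15.28 and 15.25 in *psy1r* + PSY1. Every mutant array was above every wild type array, and replicate 3 of *psy1r*, at 15.06, was closest to the wild type. The second probe read 14.38, 14.41 and 14.02 in WT and 15.07, 15.08 and 14.45 in *psy1r*, so replicate 3 was again the lowest array of each group. For *psy1r* against WT the log2 fold change was 0.51 (SE 0.16, limma adjusted p = 0.160) by the first probe and 0.60 (SE 0.20, limma adjusted p = 0.187) by the second. The first probe gave 0.60, 0.68 and 0.24 within the 3 slides and the second 0.69, 0.67 and 0.43. In treated plants the values were 0.48 and 0.42, and the responses to PSY1 lay between -0.17 and 0.14 in both lines and by both probes. Leaving out replicate 3 of *psy1r* + PSY1, the treated values were 0.50 and 0.62, and the response of *psy1r* by the second probe turned from -0.04 to 0.16. None of these passed the adjusted p.

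GASA6 and GASA14 had the opposite order, with lower levels in the mutant. GASA6 is known from *Arabidopsis* for promoting seed germination, and GASA14 for a role in leaf expansion and stress tolerance. GASA6 read 12.34, 12.24 and 11.39 in WT, 12.21, 12.40 and 12.32 in WT + PSY1, 10.78, 10.80 and 11.70 in *psy1r* and 11.74 and 11.08 in *psy1r* + PSY1. Replicate 3 stood apart in both untreated groups, low in WT and high in *psy1r*, so that the untreated groups overlapped. The log2 fold change of *psy1r* against WT was -0.89 (SE 0.33, limma adjusted p = 0.226). Within slides 1 and 2 the difference was -1.56 and -1.44, and within slide 3 it was 0.31. Without replicate 3 of *psy1r* the value was -1.20 (limma adjusted p = 0.0498), and in replicates 1 and 2 alone it was -1.50 (limma adjusted p = 0.00186), and both passed the limits of a call. Over 24 other settings the value lay between -1.50 and -0.59 and was called in 3. In treated plants the groups did not overlap, and the log2 fold change was -0.90 (SE 0.37, limma adjusted p = 0.214), with -0.47 on slide 1 and -1.24 on slide 3. The value was -0.57 without replicate 3 of *psy1r* + PSY1 (limma adjusted p = 0.590).

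The first GASA14 probe read 15.58, 15.47 and 15.08 in WT, 15.38, 15.36 and 15.24 in WT + PSY1, 14.74, 14.69 and 15.06 in *psy1r* and 15.04 and 14.62 in *psy1r* + PSY1. Of the untreated arrays, replicate 3 of WT and replicate 3 of *psy1r* lay closest to the other line, at 15.08 and 15.06. The log2 fold change of *psy1r* against WT was -0.54 (SE 0.17, limma adjusted p = 0.174), made up of -0.83, -0.77 and -0.02 within the 3 slides. The second probe, which the array assigns to another transcript of the locus, gave a similar value of -0.60 (SE 0.16, limma adjusted p = 0.119) from a different pattern. It read 8.64, 8.62 and 9.04 in WT and 8.21, 8.36 and 7.94 in *psy1r*, so that here replicate 3 was the highest WT array and the lowest *psy1r* array, with within-slide differences of -0.44, -0.26 and -1.09. The readings of this pair had an r of 0.483 over the 11 arrays, against 0.886 for the pair of GASA4 probes. In treated plants the first probe gave -0.50 (limma adjusted p = 0.199) and the second -0.17 (limma adjusted p = 0.635). These were -0.28 and -0.01 without replicate 3 of *psy1r* + PSY1.

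**Figure D2:**
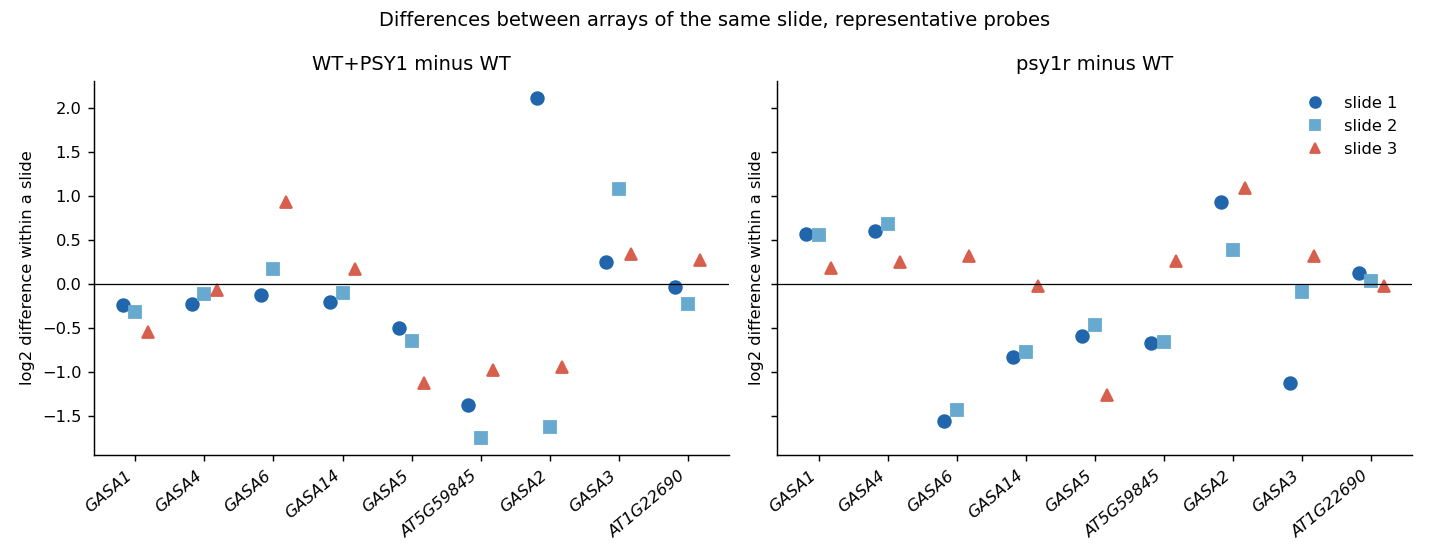
Log2 difference between arrays on the same slide for the representative probes of 9 GASA loci, WT + PSY1 minus WT (left) and *psy1r* minus WT (right), 1 point per slide. GASA5 was below 0 on all slides in both panels. GASA6 in *psy1r* was at -1.56 and -1.44 on slides 1 and 2 and at 0.31 on slide 3.

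GASA5 is known from *Arabidopsis* as a repressor of flowering that acts against gibberellin. Its treated arrays lay below the untreated ones in WT and above them in *psy1r*. The level was 7.17, 7.15 and 7.78 in WT and 6.67, 6.50 and 6.65 in WT + PSY1. In *psy1r* it was 6.58, 6.68 and 6.52 and in *psy1r* + PSY1 7.28 and 7.59. Untreated WT and treated *psy1r* formed a high level, treated WT and untreated *psy1r* a low level, and no array of one level reached the other. WT and *psy1r* + PSY1 overlapped each other, as did WT + PSY1 and *psy1r*. The log2 fold change after PSY1 was -0.76 in WT (SE 0.18, 1.69-fold lower, limma adjusted p = 0.0820) and 0.84 in *psy1r* (SE 0.20, 1.79-fold higher, limma adjusted p = 0.378). The genotype difference was -0.77 in untreated plants (SE 0.18, limma adjusted p = 0.0793) and 0.83 in treated plants (SE 0.20, limma adjusted p = 0.0714). Leaving out replicate 3 of *psy1r* + PSY1, the treated difference was 0.68 (limma adjusted p = 0.248) and the response of *psy1r* 0.69 (limma adjusted p = 0.399).

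The interaction for GASA5 was 1.60 (SE 0.27). Its unadjusted p was 0.000218, which adjustment over all tested probes turned into an adjusted p of 0.136 by limma. Within slides the response to PSY1 was -0.50, -0.66 and -1.13 in WT and 0.70 and 1.07 in *psy1r*. Without replicate 3 of WT the interaction was 1.40 (limma adjusted p = 0.0448), which is a call. It was also called without replicate 1 of *psy1r* + PSY1, at 1.76 (limma adjusted p = 0.0346), where that group is left with the array of high seed signal alone. Without replicate 3 of *psy1r* + PSY1, the array with the high seed signal, it was 1.45 (limma adjusted p = 0.228). With the RMA steps of the study's methods it was 1.24 (limma adjusted p = 0.123). Over 22 other settings it lay between 0.91 and 1.76 and was called in 3, the third being replicates 1 and 2 alone.

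AT5G59845, which has no symbol in the reference annotation, had the widest spread of group means among the members. It read 5.56, 5.77 and 5.57 in WT, 4.18, 4.02 and 4.58 in WT + PSY1, 4.89, 5.11 and 5.82 in *psy1r* and 5.58 and 7.35 in *psy1r* + PSY1, and was well above background on all 11 arrays. WT + PSY1 was below every other group without overlap, whereas the other 3 groups overlapped one another. After PSY1 the log2 fold change was -1.37 in WT (SE 0.42, 2.59-fold lower, limma adjusted p = 0.128), with -1.38, -1.75 and -0.98 within the 3 slides. The same value passed the limits when only the WT and WT + PSY1 arrays were fitted (limma adjusted p = 0.0185), and without either of the *psy1r* + PSY1 arrays (limma adjusted p = 0.0332 each time), which leaves 1 array in that group. Over 24 other settings it lay between -1.57 and -0.59 and was called in 6. The smallest change, -0.59 (limma adjusted p = 0.285), came with a normexp background correction, and the slide as a block gave an adjusted p of 0.0905 by limma.

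In *psy1r* + PSY1 against WT + PSY1, AT5G59845 had a log2 fold change of 2.20 (SE 0.47, 4.61-fold higher, limma adjusted p = 0.0575). It was 1.40 within slide 1 and 2.77 within slide 3, where replicate 3 of *psy1r* + PSY1 read 7.35. The value was 1.32 without that array (limma adjusted p = 0.150) and 3.09 without replicate 1 (limma adjusted p = 0.00768), each against a single array of the group. Over 24 other settings it lay between 0.98 and 3.09 and was called in 7. Without replicate 3 of WT the adjusted p was 0.0476, and without replicate 3 of *psy1r* it was 0.0296, with the fold change unchanged by construction. The RMA steps gave 2.08 (limma adjusted p = 0.0263), and the normexp background correction gave the smallest value, 0.98 (limma adjusted p = 0.0920). The high array is also the one with the summed seed signal of 42780, and the part of that signal in the value was not tested. The interaction was 2.56 (SE 0.63, limma adjusted p = 0.250), and 1.68 without replicate 3 of *psy1r* + PSY1. With the normexp correction it was 1.15 (limma adjusted p = 0.309), so the size of these changes depended on the background correction. The genotype difference in untreated plants was -0.36 (95% confidence interval -1.32 to 0.59).

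**Figure D3:**
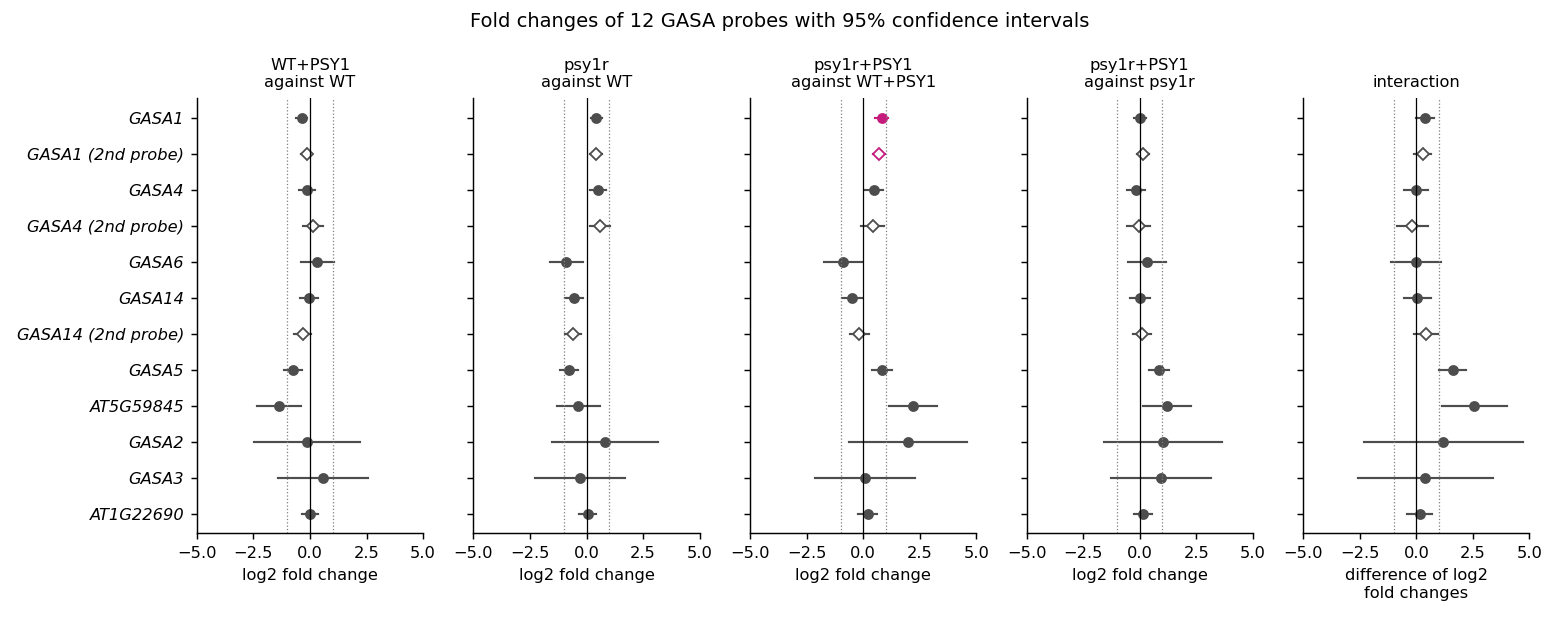
Log2 fold change (points) and 95% confidence interval (lines) of 12 GASA probes in the 5 comparisons; the interaction is the PSY1 response of *psy1r* minus that of WT. Diamonds are second probes, dotted lines mark a 2-fold change and color marks an adjusted p below 0.05. Only the GASA1 probes in *psy1r* + PSY1 against WT + PSY1 are colored, at 0.82 and 0.70, and the intervals of GASA2 and GASA3 are the widest.

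GASA2 and GASA3 lie next to each other with 0 genes between them in the TAIR10.1 annotation, and both are known from *Arabidopsis* as transcripts of siliques and seeds. Their signal was near background. GASA2 was well above background on 7 of the 11 arrays and read 2.25, 4.71 and 5.05 in WT, 4.36, 3.08 and 4.11 in WT + PSY1, 3.18, 5.09 and 6.14 in *psy1r* and 4.46 and 7.22 in *psy1r* + PSY1. GASA3 was well above background on 9 arrays and read 4.52, 4.57 and 5.24 in WT, 4.77, 5.65 and 5.58 in WT + PSY1, 3.39, 4.47 and 5.55 in *psy1r* and 3.58 and 7.27 in *psy1r* + PSY1. Both genes were highest on replicate 3 of *psy1r* + PSY1, the array with the highest seed signal, and GASA2 was next highest on replicate 3 of *psy1r*, with a summed seed signal of 1743. On replicate 3 of WT, which had the next highest summed seed signal, 2449, GASA2 read 5.05 and GASA3 5.24. The part of the seed signal in these levels was not tested.

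The SD of GASA2 and of GASA3 within *psy1r* + PSY1 was 1.95 and 2.61. The log2 fold change of GASA2 in *psy1r* + PSY1 against WT + PSY1 was 1.99 (SE 1.15, limma adjusted p = 0.370), and 0.61 without replicate 3 of *psy1r* + PSY1. For GASA3 the same comparison gave 0.09 (SE 0.98, limma adjusted p = 0.971), and -1.75 (limma adjusted p = 0.313) without that array. Apart from GASA2 in this comparison, the 95% confidence intervals of both genes reached beyond a 2-fold change in both directions in each comparison. A change of that size was therefore not excluded in either direction.

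**Figure D4:**
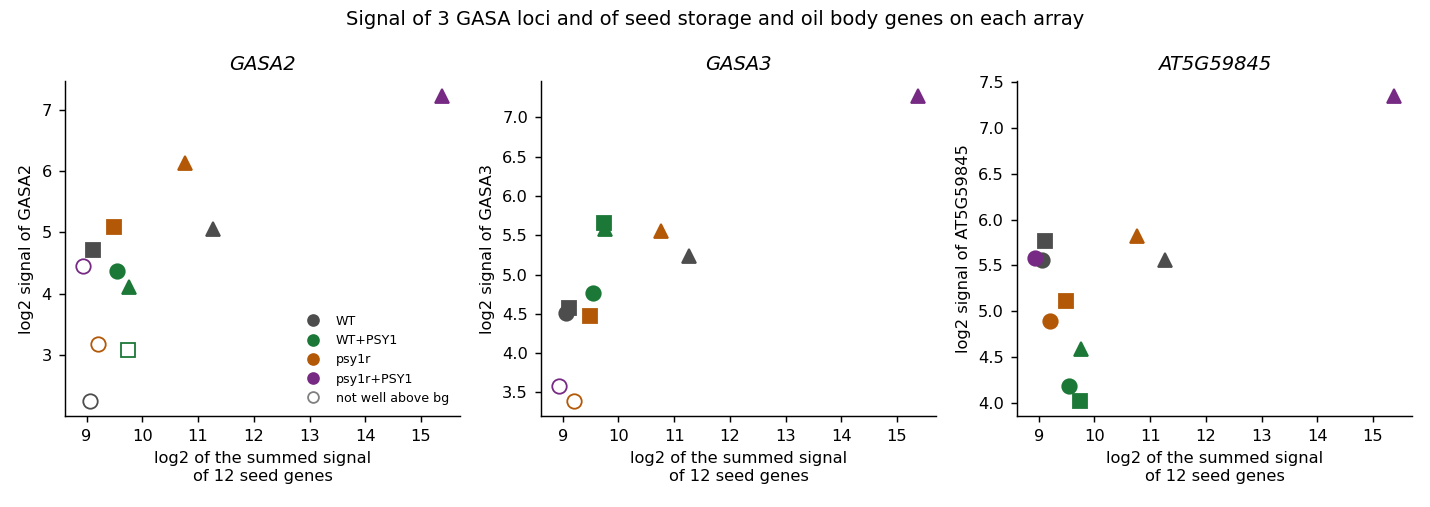
Log2 signal of GASA2, GASA3 and AT5G59845 on each array against the log2 of the summed signal of 12 seed storage and oil body genes; color gives the group, circles, squares and triangles give replicates 1, 2 and 3. Replicate 3 of *psy1r* + PSY1 is at the top right of each panel, at 7.22, 7.27 and 7.35.

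The remaining members gave little to compare. AT1G22690 read 11.13, 11.28 and 10.86 in WT, 11.09, 11.04 and 11.13 in WT + PSY1, 11.24, 11.31 and 10.84 in *psy1r* and 11.43 and 11.13 in *psy1r* + PSY1. Each untreated group spanned the whole range of WT + PSY1, and the largest of the 4 differences between groups was 0.19 (SE 0.18, limma adjusted p = 0.586), in treated plants. That difference was 0.34 (limma adjusted p = 0.503) without replicate 3 of *psy1r* + PSY1. The response of WT to PSY1 was -0.00 with a 95% confidence interval of -0.37 to 0.37. AT2G18420 was not well above background on any array, with readings of 1.08 to 2.16, and was not tested.

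Counted over the 9 tested loci by the representative probe, 4 had groups that did not overlap in WT + PSY1 against WT, all of them lower after PSY1 (GASA1, GASA4, GASA5 and AT5G59845), where 44.5% of all tested probes had such groups and 25.1% were lower. GASA4 was separated narrowly, with 14.8136 as the lowest WT array and 14.8128 as the highest WT + PSY1 array. Its second probe gave a log2 fold change of 0.14, with groups that overlapped. In *psy1r* against WT there were also 4, with GASA1 and GASA4 higher and GASA5 and GASA14 lower, against 20.7% of all tested probes (9.1% higher and 11.6% lower). In *psy1r* + PSY1 against WT + PSY1 there were 8, of which 6 were higher and GASA6 and GASA14 were lower, against 46.6% of all tested probes (23.1% higher and 23.5% lower). AT1G22690, counted as higher, had 11.1345 as its lowest *psy1r* + PSY1 array and 11.1329 as its highest WT + PSY1 array. In *psy1r* + PSY1 against *psy1r* GASA5 alone had groups that did not overlap, higher after PSY1, against 14.2% of all tested probes and 6.89% higher. The median log2 fold change of the members was -0.14, -0.30, 0.48 and 0.32 in these comparisons, where the median of all tested probes was -0.05, -0.03, 0.01 and -0.00. When replicate 3 of *psy1r* + PSY1 was left out, the medians of the members in the last 2 comparisons were 0.50 and 0.21, and those of all tested probes -0.06 and -0.05. The counts of loci whose groups did not overlap were then 9 and 4, where 77.5% and 52.4% of all tested probes had such groups. The members are counted here as loci by their brightest probe, whereas the shares are over all tested probes. A share over loci was not counted. The comparisons share groups of arrays and are not independent of each other.

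The genes of gibberellin metabolism were followed beside the GASA loci. Of 21 genes of synthesis and turnover, 17 were tested. GA3OX1, which encodes the enzyme of the last step to active gibberellin, was called lower in *psy1r*. Its first probe read 10.66, 10.68 and 10.82 in WT, 10.26, 10.25 and 10.23 in WT + PSY1, 9.25, 9.52 and 9.72 in *psy1r* and 10.10 and 9.50 in *psy1r* + PSY1. All mutant arrays were below all wild type arrays. The log2 fold change of *psy1r* against WT was -1.22 (SE 0.17, limma adjusted p = 0.0159), and the second probe gave -0.94 (limma adjusted p = 0.0536). The first probe was called in 17 of 24 other settings, between -1.33 and -1.10, and lost the call without replicate 1 or 2 of WT or of *psy1r* (adjusted p between 0.0725 and 0.0782). The call was also lost with only the groups compared (limma adjusted p = 0.0739) and with a plain t-test (adjusted p = 0.105). With replicates 1 and 2 averaged the adjusted p was 0.559 by limma. The study lists this gene from the same samples, so its direction is not independent evidence. GA2OX4, one of the enzymes that inactivate gibberellin, passed the adjusted p under the fold limit, with -0.97 (SE 0.11, limma adjusted p = 0.00772). Over 24 other settings it lay between -1.11 and -0.46 and passed the adjusted p in 19. The value of -0.46 came with the normexp background correction (limma adjusted p = 0.182). The other 15 did not pass the adjusted p, and in each of the other comparisons 0 of 17 did.

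Of 11 genes of gibberellin perception and DELLA signalling, all were tested and none was called by its representative probe. After PSY1 in WT, 0 of the 11 had a positive log2 fold change, between -0.53 and -0.04, and none passed the adjusted p, while 5 had an unadjusted p below 0.05. Of all 36371 tested probes 16363 had a positive log2 fold change and 20.9% an unadjusted p below 0.05. The median of the 11 was -0.30. The 17 genes of synthesis and turnover went mostly the other way in this comparison. Of these, 13 had a positive log2 fold change, the median was 0.30 and 4 had an unadjusted p below 0.05. Both lists are counted as loci by representative probe, whereas the shares are over all tested probes. GID1C, a gibberellin receptor, was called by its second probe in *psy1r* + PSY1 against WT + PSY1. That probe read 9.31, 9.37 and 9.34 in WT + PSY1 and 8.30 and 8.21 in *psy1r* + PSY1, a log2 fold change of -1.08 (SE 0.15, limma adjusted p = 0.0191), whereas the representative probe did not pass. The call was made in 16 of 24 other settings, and lost without any one of the WT + PSY1 arrays (adjusted p between 0.0831 and 0.0987) and without replicate 3 of *psy1r* + PSY1 (limma adjusted p = 0.0674). A model blocked on slide lost it as well (limma adjusted p = 0.0573).

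**Figure D5:**
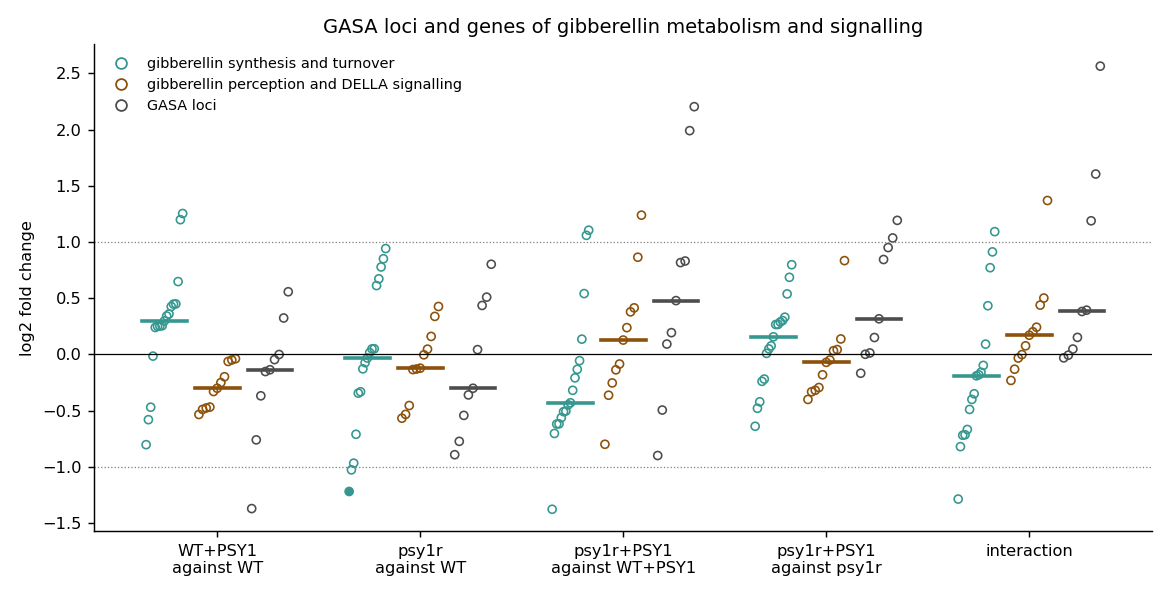
Log2 fold change of the GASA loci and of 17 genes of gibberellin synthesis and turnover and 11 of perception and DELLA signalling in the 5 comparisons, by representative probe. Horizontal bars are medians, dotted lines mark a 2-fold change and a filled point is a call. The filled point is GA3OX1 in *psy1r* against WT, at -1.22. In WT + PSY1 against WT the perception genes all lie below 0, while 13 of the 17 synthesis and turnover genes lie above 0.

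The loci whose pattern was most like that of AT5G59845 and of GASA6 were taken over the 11 arrays and 21771 loci by the Pearson r of the representative probes. For AT5G59845 they were AT2G22080 (r = 0.959), ACT7, an actin (r = 0.946), NRS/ER, an enzyme of rhamnose synthesis (r = 0.945), IDD12 (r = 0.940) and IQD16 (r = 0.936). For GASA6 they were AT4G34220 (r = 0.988), the receptor kinase LYK3 (r = 0.981), AT5G59960 (r = 0.979), AT3G56590 (r = 0.979) and DET1, a repressor of photomorphogenesis (r = 0.977). These arrays share groups, slides and the difference of replicate 3, so that the r values are a description. Among the members, GASA6 and GASA14 had the highest r, 0.933, and GASA6 and GASA1 the lowest, -0.889.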

How the data were processed

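The authors deposited the output of Agilent Feature Extraction 10.7.3.1 for each array, with the median spot intensity, the local background and the processed intensity, which is background-subtracted but not scaled between arrays. They also deposited a table of log2 values, which correlated at 0.99987 to 0.99995 with the processed intensity scaled by the 75th percentile and at 0.798 to 0.933 with RMA values, the method the study names. The processed intensity was therefore used. Outlier-flagged spots were removed, log2 values of the spots of a probe were averaged, and each array was scaled to its 75th percentile. Probes were matched to loci by RefSeq transcript with the TAIR10.1 annotation; for several probes, the one with the highest mean stood for the locus. No coordinates are given, because the array design names an older build. Tests used limma 3.58.1 in R 4.3.3 with 4 group means, and the code was tested on simulated data. The rule for named genes took PSY1R, all members, loci of the gene lists that were called, and the 5 loci most like each of the 2 members with the widest group means; GA2OX4 and the second probe of GID1C were named after their values were seen. Members, lists and tests were chosen with earlier results of these data known. The main fit, set with the design, has no block for slide. Alternatives in the values were RMA steps, quantile normalization, normexp with an offset of 50 (on median spot intensity), the authors' values and other filters on dim probes. Alternatives in the fit were the slide as a block, fewer groups, array weights, a plain t-test of each pair of groups and no fold limit. The study itself names a one-way ANOVA. Replicates 1 and 2 were also averaged or taken alone, and each array was left out. The median spot intensity of an array was 239 to 380.5 and its local background 44 to 47.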

Additional observations from a re-analysis of the deposited data

Results flagged for a closer look

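In 2 probes all treated WT arrays lay below the untreated WT arrays while all treated *psy1r* arrays lay above the untreated *psy1r* arrays. Of all tested probes 25.1% had the first of these traits and 6.89% the second. The share with both was not counted, so whether the pattern is more frequent among the GASA probes was not tested. For the GASA5 probe the PSY1 response of *psy1r* minus that of WT was 1.60 on the log2 scale (limma adjusted p = 0.136). For the second GASA1 probe it was 0.28 (limma adjusted p = 0.551). Neither difference passed the threshold after adjustment, and the first GASA1 probe did not have this pattern.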

How the results depend on the processing

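The main count of called GASA loci was 0 in each comparison. In WT + PSY1 against WT it was 1 (AT5G59845) with only the groups compared, with array weights and with a plain t-test. Of all tested probes 1.29%, 2.83% and 0.731% were called in these settings. In *psy1r* against WT the count was 1 (GASA6) with array weights, where 5.81% of all tested probes were called. In *psy1r* + PSY1 against WT + PSY1 AT5G59845 was called with the RMA steps, with quantile normalization and with probes above background on all arrays. GASA1 was called there with no limit on the fold. The shares of all tested probes were 2.37%, 1.1%, 1.54% and 1.78%. Each of these shares was above that of the main fit. In replicates 1 and 2 only, *psy1r* + PSY1 holds 1 array. AT5G59845 was then at -1.57 in WT + PSY1 against WT and at 1.48 in *psy1r* + PSY1 against WT + PSY1. GASA6 was at -1.50 in *psy1r* against WT. The interaction was 1.23 for GASA5 and 2.15 for AT5G59845. With each array left out in turn the counts were 0 to 1, 0 to 1, 0 to 1, 0 to 0 and 0 to 2 in the order of the report. The arrays whose removal gave a call were WT replicate 3, *psy1r* replicate 3 and both *psy1r* + PSY1 arrays. Arrays of the same replicate number, which share a slide, deviated from their group means with a median r of 0.24 (-0.15 to 0.50, over 0.1 in 11 of 15 pairs). Arrays of different numbers had a median of -0.12 (30 pairs). Deviations from a group mean cancel within the group, and those of the 2 *psy1r* + PSY1 arrays mirror each other. The pairs are therefore not independent, and the contrast between the medians is partly fixed by construction. Not every pair was above 0.1, and the main fit, set with the design, was kept without a block. This does not show that the slides had no effect. In *psy1r* + PSY1 against WT + PSY1, 120 of all tested probes were called with the block and 382 without it. With the slide as a replicate block the count was 0 in all 5 comparisons, and 0 of all tested probes were called in WT + PSY1 against WT, where 74 were called without it, while the block ended the call of PSY1R in treated plants and that of the second GID1C probe.

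The interaction of GASA6 turned from -0.01 to 0.93 in replicates 1 and 2 only (adjusted p = 0.0388). In that setting, and without one *psy1r* + PSY1 array, the group holds 1 array, which is assumed to vary like the other groups. Over all alternatives 83 of 1406 fold changes of the members had another sign than in the main fit, and none of these was among the 23 results with an unadjusted p below 0.05. Many of the 1406 could not differ, because a setting that keeps the arrays and values of a comparison repeats its fold change. All settings also use the same arrays, so the count is a description and no measure of robustness. The share of all probes called moved widely, from 0% to 2.83% in WT + PSY1 against WT, from 0% to 5.81% in *psy1r* against WT, from 0.0192% to 5.58% in *psy1r* + PSY1 against WT + PSY1, from 0% to 2.37% in *psy1r* + PSY1 against *psy1r* and from 0% to 2.4% in the interaction. The highest shares came with array weights or with replicates 1 and 2 only. The cause was not tested. GASA2, GASA3 and AT2G18420 were limited by signal near background. The fold changes of AT5G59845 and GASA5 were smaller with the normexp background correction than in the main fit. Sequences of the loci were not analysed here.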
